A study of Mus musculus with 28 samples.

Results

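The HoxD cluster is a run of 9 homeobox genes on mouse chromosome 2, and its members were taken by name from the deposited count table: *Hoxd1*, *Hoxd3*, *Hoxd4*, *Hoxd8*, *Hoxd9*, *Hoxd10*, *Hoxd11*, *Hoxd12* and *Hoxd13*, 9 of the 28244 genes counted. Read counts were followed across 28 RNA-seq samples in 11 groups from a study of peripheral neural stem cells (pNSCs), which are neural stem cell (NSC)-like cells grown from mouse tissues outside the brain.

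The groups labelled Tail-pNSC, Lung-pNSC, Brain-NSC, Tail and Lung held 2 samples each. By the methods of the study, Tail-pNSC and Lung-pNSC were grown from GFP+ cells that were sorted from postnatal tail and adult lung of *Nes*-GFP mice, in which a *Nestin* promoter drives GFP. The labels themselves give only the group name for these 5 groups. The other 6 groups held 3 samples each. The Wnt1Cre-mTmG Tail pNSCs and the Wnt1Cre-mTmG DRG pNSCs came from postnatal tail and dorsal root ganglion (DRG) of mice in which Wnt1-Cre turns neural crest progeny from membrane Tomato to membrane GFP. By the paper, all cells were plated unsorted, and the pNSC clusters that grew were Tomato+ and GFP-. Wnt1Cre-mTmG brain NSCs were their brain counterpart, and DRG NCSCs were neural crest stem cells from the ganglia of adult wild-type mice. Sox2-GFP lung pNSCs and Sox2-GFP brain NSCs came from mice with a GFP reporter at *Sox2*. By the paper, these lung pNSCs were grown from GFP+ cells sorted from postnatal lung. The methods do not give the age of each brain group or of Lung. Adult tissue was taken at around 4 to 6 weeks and postnatal tissue at around postnatal day 1 to 5. Strain was given as C57BL/6 for all samples, whereas the methods describe transgenic mice bred with wild-type CD1 or mixed CD1 and C3H mice. All NSC and pNSC groups were grown in NSC medium with EGF and bFGF, and a pNSC line was started from 1 picked cluster that was usually clonal. The labels do not say whether replicates were separate cultures or animals, so p-values measure only the spread between these samples. Where the samples of a group share 1 line, a difference between groups cannot be told apart from one between lines.

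Hox genes encode homeodomain transcription factors that give cells along the body axis a positional identity. Within a cluster their order on the chromosome follows the order in which they are activated in the embryo, from genes used near the hindbrain at one end (*Hoxd1*) to genes used in the tail bud, distal limb and genitalia at the other (*Hoxd13*). The forebrain and midbrain form in front of the domains of all Hox genes, and cultured cells often retain the Hox pattern of the place they were taken from. *Hoxd1*, *Hoxd3* and *Hoxd4* are the anterior members, *Hoxd8* is a central member, and *Hoxd9* to *Hoxd13* are the posterior members related to *Drosophila* Abdominal-B.

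All 9 genes lie on the forward strand of GRCm38, the build that the authors aligned to. *Hoxd13* (chr2:74668310-74671599) starts first, followed by *Hoxd12* (chr2:74675013-74677705), *Hoxd11* (chr2:74679557-74687016), *Hoxd10* (chr2:74691924-74695105), *Hoxd9* (chr2:74697727-74700208), *Hoxd8* (chr2:74704615-74707933), *Hoxd3* (chr2:74711927-74748442), *Hoxd4* (chr2:74711929-74729160) and *Hoxd1* (chr2:74762980-74765142). The homeoboxes, which are the exonic stretches that encode the DNA-binding homeodomain, are shown for 4 members on which the comparisons turned and for *Hoxa11*, the HoxA paralogue of *Hoxd11*. They show how far genes that were counted apart resemble each other, and capitals mark the 6 codons of the homeodomain recognition helix from its conserved tryptophan onward (bases 142 to 159 of 180). The sequences were read from GENCODE transcripts of GRCm38. They lie at chr2:74706525-74706704 (*Hoxd8*, exon 3), chr2:74694141-74694320 (*Hoxd10*, exon 2), chr2:74683917-74684096 (*Hoxd11*, exon 2), chr2:74669930-74670109 (*Hoxd13*, exon 2) and, on the reverse strand, chr6:52243402-52243581 (*Hoxa11*, exon 2).
Hoxd8: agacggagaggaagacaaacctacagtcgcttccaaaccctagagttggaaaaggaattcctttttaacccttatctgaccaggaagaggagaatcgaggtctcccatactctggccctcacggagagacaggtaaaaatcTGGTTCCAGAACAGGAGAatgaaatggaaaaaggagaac
Hoxd10: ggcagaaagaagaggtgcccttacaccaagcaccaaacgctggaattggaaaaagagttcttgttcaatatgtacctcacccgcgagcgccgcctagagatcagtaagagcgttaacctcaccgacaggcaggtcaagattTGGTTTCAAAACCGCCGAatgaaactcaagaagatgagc
Hoxd11: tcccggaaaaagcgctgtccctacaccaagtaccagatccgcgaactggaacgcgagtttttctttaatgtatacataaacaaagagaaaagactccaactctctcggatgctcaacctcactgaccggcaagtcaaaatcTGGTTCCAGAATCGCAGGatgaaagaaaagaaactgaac
Hoxd13: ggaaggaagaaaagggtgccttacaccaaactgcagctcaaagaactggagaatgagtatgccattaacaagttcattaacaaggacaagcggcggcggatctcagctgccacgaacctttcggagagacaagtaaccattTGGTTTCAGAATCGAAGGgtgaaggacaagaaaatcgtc
Hoxa11: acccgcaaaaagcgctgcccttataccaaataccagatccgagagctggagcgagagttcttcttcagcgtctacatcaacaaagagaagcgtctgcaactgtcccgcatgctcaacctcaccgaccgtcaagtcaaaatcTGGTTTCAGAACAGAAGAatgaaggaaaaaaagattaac

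*Hoxd11* was closer to *Hoxa11* (80.6% of the 180 bases identical) than to its neighbour *Hoxd10* (65.0%) or to *Hoxd13* (59.4%), and the longest identical run between *Hoxd11* and *Hoxa11* was 17 bases. In the same way *Hoxd10* matched *Hoxa10* at 78.9% of bases. Over their whole transcripts *Hoxd8*, *Hoxd9*, *Hoxd13*, *Hoxd12* and *Hoxd1* shared no run of 50 bases with any other annotated gene. *Hoxd11* shared 9.85% and *Hoxd10* 3.17% of their 50-base runs with *Gm28309*, an annotated locus of the cluster that is not a row of the count table, and *Hoxd11* shared 0.194% with genes outside the cluster. *Hoxd3* and *Hoxd4* are less certain, since their exons overlap (9.26% of the exonic bases of *Hoxd3* and 13.2% of those of *Hoxd4*) and the antisense transcript *Hoxd3os1* overlaps 8.28% and 11.8% of them. The library kit does not mark strand, so reads in those stretches could not be assigned to one gene or its antisense partner. A larger overlap is with *Gm28230*, a locus on the same strand that is not a row of the count table. It covers 53.1% of the exonic bases of *Hoxd3* and 39.1% of those of *Hoxd4*. How reads in that overlap were counted is not known.

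The 28 samples held 9808246 to 22637031 reads counted to genes. The Wnt1Cre-mTmG brain NSCs and Wnt1Cre-mTmG DRG pNSCs were the shallowest, at 9808246 to 11431445 reads, and no sample of another group held fewer than 16700710. DRG NCSCs replicate 3 stood apart from the other 2 samples of its group over all genes (chi-square per gene 17.1 and 21.4, against 1.09 to 2.90 for the other 21 replicate pairs). Without it the mean CPM of the DRG NCSCs was 11.2 for *Hoxd8*, 2.46 for *Hoxd9*, 0.795 for *Hoxd10*, 0.304 for *Hoxd4* and 0.117 for *Hoxd3* (0.234 with it). Of 5 NSC markers, all 5 were detected in every NSC and pNSC group, whereas 3 of 5 were detected in Tail and in DRG NCSCs and 2 of 5 in Lung. All 6 neural crest and Schwann cell markers were detected in DRG NCSCs (summed 4255 to 4360 CPM), against 3 of 6 in Wnt1Cre-mTmG DRG pNSCs (6.60 to 7.54 CPM).

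How far toward *Hoxd13* transcripts reached differed from group to group. A gene was called detected in a group when every sample held more than 3 counts. By that limit 7 of the 9 members were detected in Tail (*Hoxd3* to *Hoxd11* and *Hoxd13*), 6 in Wnt1Cre-mTmG Tail pNSCs (*Hoxd3* to *Hoxd11*), 5 in Tail-pNSC (*Hoxd3* to *Hoxd10*) and 3 in Wnt1Cre-mTmG DRG pNSCs (*Hoxd4*, *Hoxd8* and *Hoxd9*). The DRG NCSCs held 4 (*Hoxd4*, *Hoxd8*, *Hoxd9* and *Hoxd10*), and *Hoxd8* alone was detected in Lung-pNSC and in Lung. No member was detected in any of the 3 brain groups or in Sox2-GFP lung pNSCs. Summed over the cluster, counts were 0 to 2 per sample in these 4 groups, which allowed up to 3 counts per library for each gene. With a limit of 10 counts, Lung lost *Hoxd8* and DRG NCSCs lost *Hoxd4*. Depth differed between groups, so 3 counts stood for 0.279 CPM in Wnt1Cre-mTmG DRG pNSCs and 0.162 CPM in Tail-pNSC. *Hoxd3* was not detected in Wnt1Cre-mTmG DRG pNSCs at 0.702 CPM, whereas *Hoxd4* was detected in DRG NCSCs at 0.281 CPM. The number of members detected is therefore not a ranking of level. In bulk samples, a lower value from fewer expressing cells and one from less RNA per cell cannot be told apart.

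**Figure D1:**
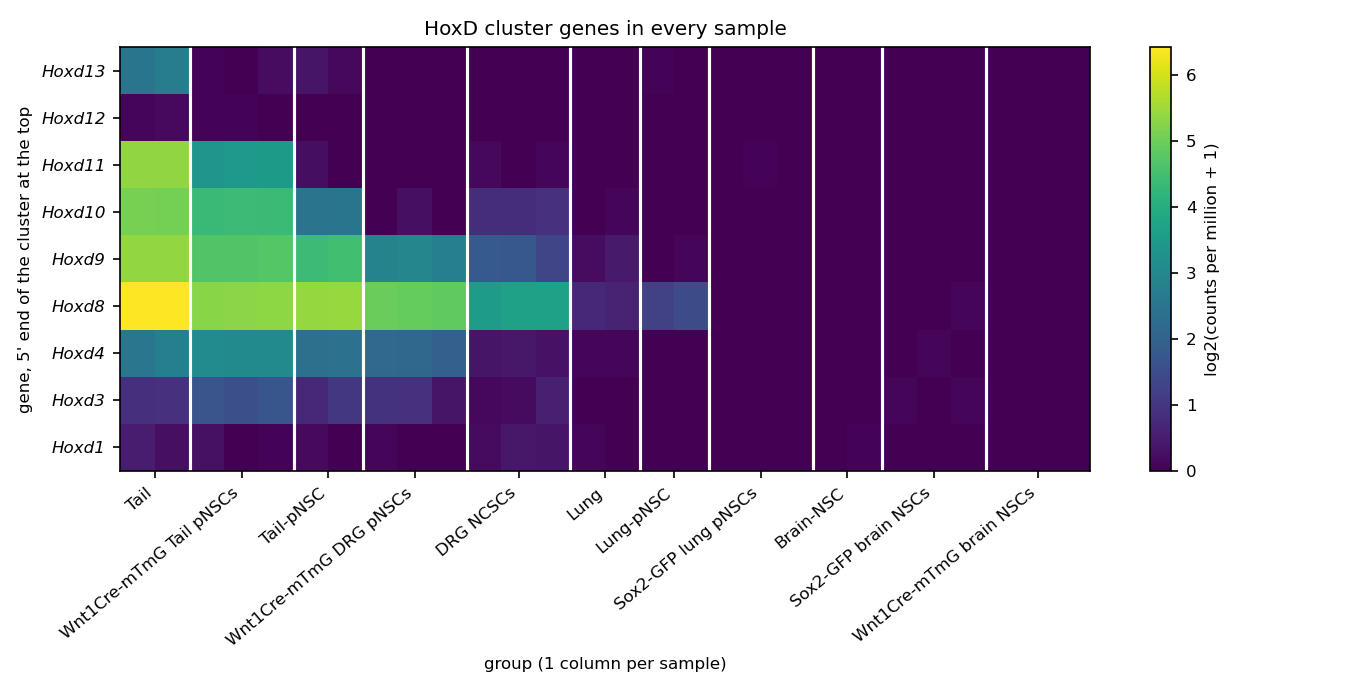
Heat map of log2(CPM + 1) for the 9 HoxD genes (rows, in chromosomal order with *Hoxd13* at the top) in the 28 samples (columns, grouped). Signal reached *Hoxd13* in Tail, *Hoxd11* in Wnt1Cre-mTmG Tail pNSCs, *Hoxd10* in Tail-pNSC and *Hoxd9* in Wnt1Cre-mTmG DRG pNSCs, and the brain groups were near 0 in all 9 rows.

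*Hoxd8*, the central member, had the highest read count of the cluster in every group where a member was detected. Tail held 1505 and 1306 counts, Tail-pNSC 725 and 835, and Wnt1Cre-mTmG Tail pNSCs 865, 842 and 782. Wnt1Cre-mTmG DRG pNSCs held 352, 291 and 288 counts, DRG NCSCs 228, 250 and 203, Lung-pNSC 30 and 32, and Lung 12 and 9. As CPM (reads scaled to a common library total, mean ± SD over the samples), the level fell from 83.9 ± 0.843 in Tail (n = 2) to 41.9 ± 0.638 in Tail-pNSC (n = 2), 38.6 ± 0.774 in Wnt1Cre-mTmG Tail pNSCs (n = 3), 28.7 ± 1.06 in Wnt1Cre-mTmG DRG pNSCs (n = 3) and 11.4 ± 0.732 in DRG NCSCs (n = 3, 11.2 without replicate 3), with 1.60 ± 0.257 in Lung-pNSC and 0.607 ± 0.0644 in Lung (n = 2 each). No 2 neighbours in this order overlapped.

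*Hoxd9*, which is active in the trunk and limb bud, kept the same order except that both tail pNSC groups changed places, as did both lung groups. Tail held 727 and 631 counts (40.5 ± 0.402 CPM), Wnt1Cre-mTmG Tail pNSCs 557, 532 and 506 (24.8 ± 0.610 CPM) and Tail-pNSC 350 and 418 (20.6 ± 0.842 CPM). The level was 6.28 ± 0.513 CPM in Wnt1Cre-mTmG DRG pNSCs (74, 69 and 60 counts) and 2.14 ± 0.545 CPM in DRG NCSCs (54, 51 and 26 counts, 2.46 CPM without replicate 3). Lung held 3 and 6 counts and Lung-pNSC 0 and 1. These groups did not overlap either.

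*Hoxd10*, a posterior member with known roles in lumbosacral motor neurons and the limb, separated the DRG groups from the tail groups. Tail held 593 and 515 counts (33.1 ± 0.314 CPM), Wnt1Cre-mTmG Tail pNSCs 434, 436 and 396 (19.6 ± 0.593 CPM) and Tail-pNSC 79 and 91 (4.56 ± 0.0700 CPM). DRG NCSCs held 17, 17 and 15 counts (0.822 ± 0.0463 CPM) and Wnt1Cre-mTmG DRG pNSCs 0, 2 and 0. The highest sample of each group lay below the lowest of the group before it, down to the Wnt1Cre-mTmG DRG pNSCs, whose range overlapped that of Lung (0 and 1 counts).

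*Hoxd11*, which patterns the sacral region, kidney and forearm, was present in only 2 of the 11 groups by the detection limit. Tail held 713 and 626 counts (39.9 to 40.04 CPM), and Wnt1Cre-mTmG Tail pNSCs held 216, 218 and 203 (9.89 ± 0.403 CPM). Tail-pNSC held 3 and 0 counts, DRG NCSCs 2, 0 and 1, Sox2-GFP lung pNSCs 0, 1 and 0, and every other sample 0. The Wnt1Cre-mTmG Tail pNSCs and Tail-pNSC, both grown from postnatal tail, did not overlap.

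*Hoxd13*, the last gene of the cluster and a regulator of digits, genitalia and the tail end of the axis, was detected in Tail alone, with 82 and 85 counts (5.01 ± 0.579 CPM). Tail-pNSC held 5 and 2 counts, Wnt1Cre-mTmG Tail pNSCs 1, 0 and 3, Lung-pNSC 1 and 0, and all other samples 0. The ranges of both tail pNSC groups overlapped. *Hoxd12*, its neighbour, reached at most 2 counts in any sample (Tail 1 and 2, Wnt1Cre-mTmG Tail pNSCs 1, 1 and 0).

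The anterior members were low throughout and ordered the groups differently. *Hoxd4*, an anterior gene that responds to retinoic acid, was highest in Wnt1Cre-mTmG Tail pNSCs (174, 161 and 148 counts, 7.48 ± 0.105 CPM), above Tail (84 and 91 counts, 5.26 ± 0.770 CPM), Tail-pNSC (73 and 86 counts, 4.26 ± 0.133 CPM) and Wnt1Cre-mTmG DRG pNSCs (42, 35 and 30 counts, 3.30 ± 0.361 CPM). DRG NCSCs held 6, 7 and 4 counts. *Hoxd3*, its neighbour that patterns the upper cervical vertebrae, was also highest in Wnt1Cre-mTmG Tail pNSCs (51, 43 and 46 counts, 2.17 ± 0.175 CPM), while Tail (15 and 14 counts), Tail-pNSC (11 and 21) and Wnt1Cre-mTmG DRG pNSCs (11, 9 and 3) overlapped each other. *Hoxd1*, the most anterior member, had 7 and 3 counts in Tail and 3, 7 and 5 in DRG NCSCs, and 0 to 5 in every other sample.

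**Figure D2:**
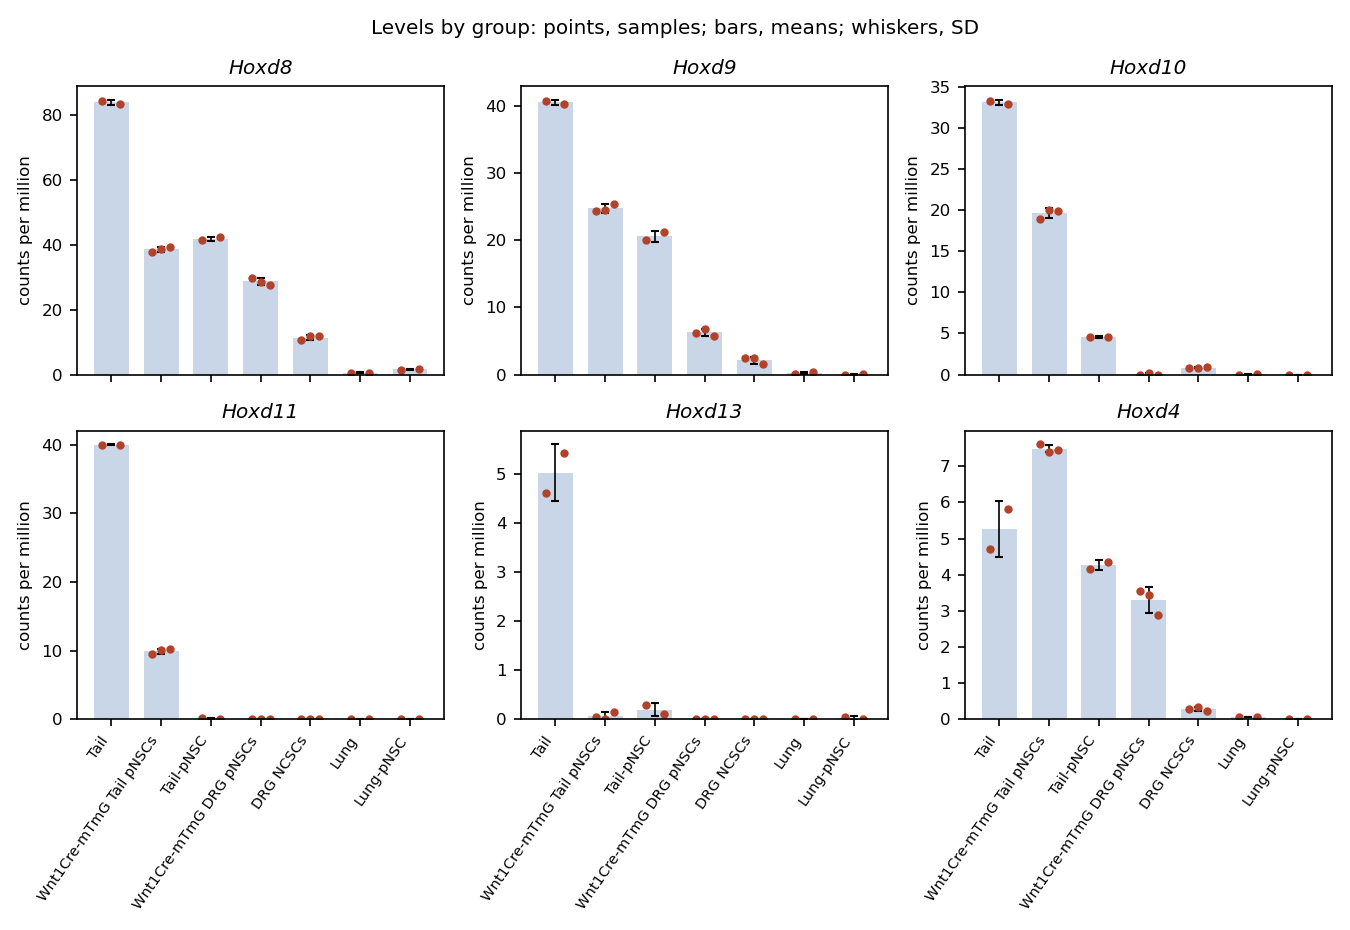
CPM of *Hoxd8*, *Hoxd9*, *Hoxd10*, *Hoxd11*, *Hoxd13* and *Hoxd4* in the 7 groups with HoxD counts, with bars for group means, points for samples and whiskers for SD. *Hoxd8* fell from 83.9 CPM in Tail to 0.607 in Lung, *Hoxd11* and *Hoxd13* were near 0 outside 2 groups and 1 group respectively, and *Hoxd4* was highest in Wnt1Cre-mTmG Tail pNSCs.

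To compare levels between members, counts were divided by exonic length (RPKM, which is CPM per kilobase), taken from the GENCODE basic annotation. For *Hoxd11* that length is 1111 bases, whereas the exons of all its annotated transcripts cover 4212, and which of them the reads came from was not determined, so its place among the members is not settled. In Tail it stood at 36.0 RPKM by the basic length and 9.49 by the longer, against 30.6 for *Hoxd8*, 19.0 for *Hoxd9*, 18.2 for *Hoxd10* and 2.02 for *Hoxd13*, whose lengths are the same either way. In Tail-pNSC *Hoxd8* led with 15.3 RPKM, followed by *Hoxd9* (9.64) and *Hoxd10* (2.51). In Wnt1Cre-mTmG Tail pNSCs *Hoxd8*, *Hoxd9* and *Hoxd10* were closer together, at 14.1, 11.6 and 10.8 RPKM, with *Hoxd11* at 8.90 or 2.35. By the basic length the sum over the 9 members was 108 ± 0.244 RPKM in Tail (81.5 by the longer), 49.1 ± 1.10 (42.0) in Wnt1Cre-mTmG Tail pNSCs, 29.5 ± 0.607 in Tail-pNSC, 15.0 ± 0.830 in Wnt1Cre-mTmG DRG pNSCs and 5.97 ± 0.242 in DRG NCSCs. It stayed at or below 0.607 RPKM in the other 6 groups.

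The make-up of that sum also differed. The share of *Hoxd8* was 28.2% in Tail (37.5% by the longer lengths) and 28.7% ± 0.0756 in Wnt1Cre-mTmG Tail pNSCs (33.5%), but 51.7% ± 0.276 in Tail-pNSC, 70.0% ± 2.01 in Wnt1Cre-mTmG DRG pNSCs and 69.5% ± 2.80 in DRG NCSCs. *Hoxd11* made up 33.2% of the sum in Tail, 18.1% ± 0.358 in Wnt1Cre-mTmG Tail pNSCs and 0.265% in Tail-pNSC, or 11.7%, 5.59% and 0.0708% by the longer lengths. *Hoxd10* made up 16.8%, 22.0% ± 0.364 and 8.51% ± 0.0445 in the same order by the basic length. *Hoxd4* took its highest share in Wnt1Cre-mTmG DRG pNSCs (8.59% ± 0.481).

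**Figure D3:**
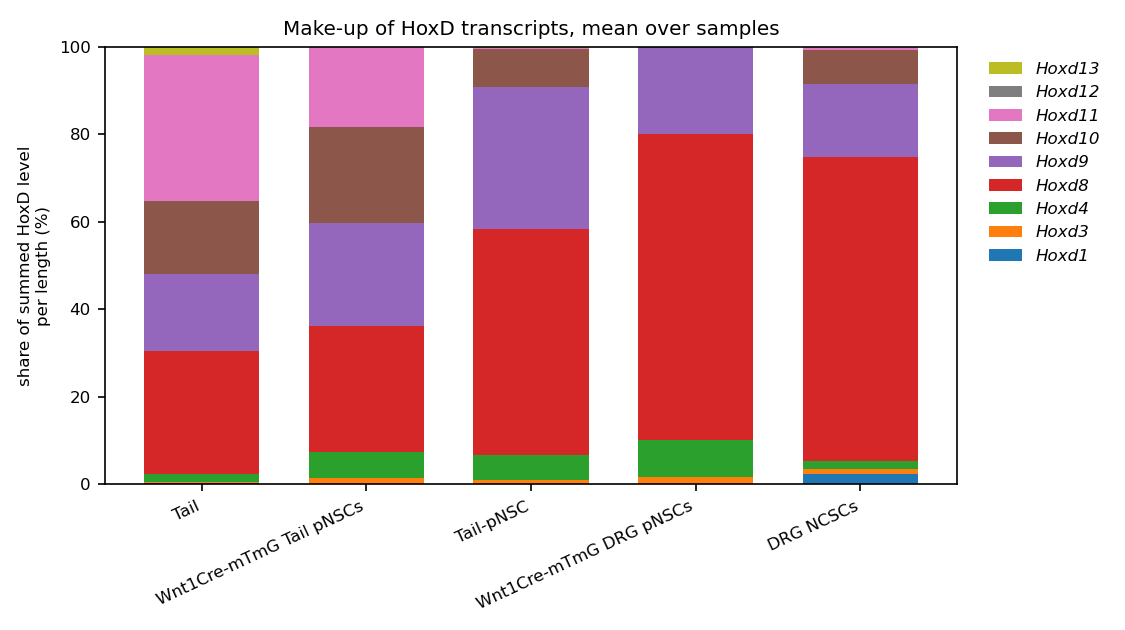
Stacked bars of the share (%) of each member in the summed RPKM of the HoxD cluster by basic exonic length, as group means, for the 5 groups with at least 100 HoxD counts in every sample. *Hoxd8* rose from 28.2% in Tail to 70.0% in Wnt1Cre-mTmG DRG pNSCs, and the *Hoxd11* part, 33.2% in Tail and 18.1% in Wnt1Cre-mTmG Tail pNSCs, was 0.265% in Tail-pNSC. With the exons of all annotated transcripts the *Hoxd11* part was 11.7%, 5.59% and 0.0708%.

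The first comparison addressed whether pNSCs differ from brain NSCs in these genes. Differences were tested with the quasi-likelihood test of edgeR, and a gene was called when its Benjamini-Hochberg adjusted p over all genes tested was below 0.05 and its change was at least 2-fold. Since the brain samples held no counts of most members, changes are given as lower limits against 3 counts per library. Between Tail-pNSC and Brain-NSC, 6 of the 7 members tested were higher in Tail-pNSC, against 4.31% of all genes tested. *Hoxd8* was at least 281-fold higher, *Hoxd9* at least 138-fold, *Hoxd10* at least 30.6-fold (edgeR adjusted p = 2.9e-42), *Hoxd4* at least 28.6-fold (2.08e-33) and *Hoxd3* at least 5.67-fold (1.81e-07). *Hoxd13* was called on 7 counts against 0 (edgeR adjusted p = 0.0145), and that call was lost without Tail-pNSC replicate 1 (edgeR adjusted p = 0.145), without Brain-NSC replicate 1 (0.0783) and without Brain-NSC replicate 2 (0.0846). *Hoxd13* and *Hoxd11* were in the fit through their Tail counts, and *Hoxd13* was not tested when only these 2 groups were fitted. *Hoxd11*, with 3 counts against 0, did not pass (edgeR adjusted p = 0.105) but did without Tail-pNSC replicate 2 (0.0341).

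In the Wnt1Cre-mTmG experiment all 6 members tested were higher in tail pNSCs than in Wnt1Cre-mTmG brain NSCs, against 9.16% of all genes. *Hoxd11* and *Hoxd3* were in that fit only through their counts in these tail pNSCs, which favours their being called higher here. *Hoxd8* was at least 143-fold higher (edgeR adjusted p = 2.4e-15), *Hoxd9* at least 91.5-fold, *Hoxd10* at least 72.6-fold, *Hoxd11* at least 36.6-fold (4.11e-10), *Hoxd4* at least 27.7-fold and *Hoxd3* at least 8.03-fold (1.39e-06). Mesenchymal markers were also higher in these tail pNSCs, with 7 of 9 called and a sum of 511 to 516 CPM against 55.5 to 57.8 in the brain NSCs, and their part in the HoxD difference was not tested. In Wnt1Cre-mTmG DRG pNSCs against the same brain samples, 4 of 6 were higher (3.12% of all genes), with *Hoxd8* at least 106-fold, *Hoxd9* at least 23.2-fold and *Hoxd4* at least 12.2-fold higher and *Hoxd3* called on 23 counts against 0 (edgeR adjusted p = 0.000955). *Hoxd3* was in that fit through its counts in other groups and was not tested when only these 2 groups were fitted. *Hoxd10* was not called there on 2 counts against 0 (edgeR adjusted p = 0.162). DRG NCSCs against the same brain samples gave 5 higher members of 6 (22.1% of all genes), led by *Hoxd8* at least 42.15-fold and *Hoxd9* at least 7.92-fold. Of these 5, *Hoxd3* (13 counts against 0) and *Hoxd4* (17 against 0) were not tested when only these 2 groups were fitted. These 3 comparisons share the brain samples.

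pNSCs from lung showed little HoxD signal against brain. Between Lung-pNSC and Brain-NSC, 1 of 7 members tested was called, *Hoxd8*, at least 10.8-fold higher in Lung-pNSC (30 and 32 counts against 0 and 0, edgeR adjusted p = 3.59e-17, 4.56% of all genes higher). Between Sox2-GFP lung pNSCs and Sox2-GFP brain NSCs, *Hoxd8* was the 1 member with enough counts in the fit to test, through its counts in Lung. It was not called (0, 0 and 0 counts against 0, 0 and 1, edgeR adjusted p = 0.346, 15.7% of all genes called in either direction). The edgeR test of the difference between these differences called *Hoxd8* (8.24% of all genes called with that sign), but on the Sox2-GFP side it rests on that 1 read, and the size of the effect there is not known. Reporter and lung age differed together between the experiments and cannot be told apart. Lung epithelial markers were at 0 in all 5 genes in Lung-pNSC and summed to 0 to 0.144 CPM in Sox2-GFP lung pNSCs.

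Comparing the pNSC lines with each other, 5 of 7 members tested were higher in Tail-pNSC than in Lung-pNSC (5.00% of all genes). Tissue, age and picked cluster differed together between them (postnatal tail against adult lung) and cannot be told apart. *Hoxd8* differed by 4.72 ± 0.14 on the log2 scale (log2 fold change ± SE). *Hoxd9* had 768 counts against 1, a ratio of CPM of 804 (95% counting interval 144 to 31810), with lower limits on the fold of 29.5 for *Hoxd10*, 27.5 for *Hoxd4* and 5.46 for *Hoxd3*. *Hoxd13* (edgeR adjusted p = 0.0856) and *Hoxd11* (0.102) were not called, although *Hoxd11* was without Tail-pNSC replicate 2 (edgeR adjusted p = 0.03195). The Tail-pNSC samples are the same as in the comparison with brain. Between the tissues themselves, all 7 members tested were higher in Tail than in Lung (20.5% of all genes), including *Hoxd11* by at least 228.5-fold and *Hoxd13* by at least 28.6-fold. *Hoxd11* and *Hoxd13* were in the fit only through their Tail counts, which favours their being called higher here. These 2 genes were thus called between the tissues and not between the pNSC lines from them. Whether these 2 tail-to-lung differences differ from each other was not tested.

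The pNSC lines were then set against their tissue of origin. Of the 7 members tested, 5 were lower in Tail-pNSC than in Tail, against 32.6% of all genes, in a comparison whose median over all genes was -0.16 on the log2 scale and whose median over the 7 members was -1.09. Of these 5, *Hoxd11* and *Hoxd13* were in the fit only through their Tail counts, which favours their being called lower here. The estimates nearest to 0 were those of *Hoxd3* and *Hoxd4*, and the one farthest from 0 was that of *Hoxd11*. *Hoxd3* (log2 fold change -0.10 ± 0.49, interval -1.06 to 0.86) and *Hoxd4* (-0.38 ± 0.23, interval -0.82 to 0.06) were not called, with edgeR adjusted p = 0.859 and 0.107. *Hoxd8* was lower by 2.12-fold (-1.09 ± 0.07) and *Hoxd9* by 2.09-fold (-1.06 ± 0.09). *Hoxd10* was 7.67-fold lower (-2.94 ± 0.14, edgeR adjusted p = 4.19e-102) and *Hoxd13* 27.2-fold lower (-4.77 ± 0.45, 3.23e-26). *Hoxd11* went from 1339 counts over the 2 Tail samples to 3 over the 2 Tail-pNSC samples, a ratio of 496 (95% counting interval 169.5 to 2410), and the DESeq2 Wald test did not call it (DESeq2 adjusted p = 0.0656).

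Expressed as a percentage of the CPM in Tail, Tail-pNSC held 97.5% for *Hoxd3*, 81.0% for *Hoxd4*, 49.9% for *Hoxd8*, 50.8% for *Hoxd9*, 13.8% for *Hoxd10*, 0.214% for *Hoxd11* and 3.86% for *Hoxd13*. Markers of the other cells of a tail moved in the same direction between these groups. The summed level of 9 mesenchymal markers was 72617 to 74516 CPM in Tail and 40.1 to 40.4 in Tail-pNSC, which is 0.0547% of the Tail level, with 4 of 9 detected and *Pdgfrb* at 0. Keratinocyte markers stood at 0.193% and neural crest and Schwann cell markers at 0.437% of their Tail level. The part of the mesenchymal and skin cells in the HoxD difference was not tested.

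Lung-pNSC against Lung had *Hoxd8* higher by 2.53-fold (log2 fold change 1.34 ± 0.37, edgeR adjusted p = 0.000322, 20.2% of all genes higher) on 62 against 21 counts. *Hoxd9* was lower in Lung-pNSC (1 against 9 counts, a ratio of 10.2, 95% counting interval 1.41 to 447, edgeR adjusted p = 0.00862, 34.9% of all genes lower), and it lost the call without Lung-pNSC replicate 1 (edgeR adjusted p = 0.109) or without Lung replicate 2 (0.116). *Hoxd9* was in that fit through its counts in the tail groups and was not tested when only these 2 groups were fitted. Sox2-GFP lung pNSCs had *Hoxd8* at least 4.37-fold lower than Lung (edgeR adjusted p = 4.69e-09, 34.9% of all genes lower). It was the 1 member tested there, passed the filter through its Lung counts, and was not tested without either Lung sample. The Lung samples are shared by both comparisons, and no lung group held more than 32 counts of any member in a sample.

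The Wnt1Cre-mTmG experiment asked whether pNSCs derive from the neural crest and how they differ from neural crest stem cells. All 6 members tested were higher in Wnt1Cre-mTmG Tail pNSCs than in DRG NCSCs (15.3% of all genes). Of these, *Hoxd11* and *Hoxd3* were in the fit only through the tail pNSCs, which favours that direction. Log2 fold changes ± SE ran from 1.75 ± 0.07 for *Hoxd8* through 3.27 ± 0.40 for *Hoxd3*, 3.49 ± 0.12 for *Hoxd9*, 4.56 ± 0.15 for *Hoxd10* and 4.68 ± 0.20 for *Hoxd4*. Without DRG NCSCs replicate 3 the value for *Hoxd3* was 4.12. *Hoxd11* had 637 counts against 3, a ratio of 197 (95% counting interval 67.2 to 959). The DRG NCSCs also held more RNA of other cell types. Their summed mesenchymal markers were at 3059 to 3674 CPM and their leukocyte markers at 543 to 573 CPM, and the part of these cells in the HoxD values was not tested.

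The DRG groups, which are 2 kinds of stem cell culture from dorsal root ganglia, differed in both directions. Wnt1Cre-mTmG DRG pNSCs were higher than DRG NCSCs in *Hoxd4* (3.49 ± 0.25), *Hoxd9* (1.51 ± 0.16) and *Hoxd8* (1.32 ± 0.07), and also in *Hoxd3* (1.66 ± 0.58, edgeR adjusted p = 0.0141), where the samples overlapped and the call was lost when 1 of 3 samples was left out (edgeR adjusted p = 0.0561 without DRG NCSCs replicate 1, 0.0847 without Wnt1Cre-mTmG DRG pNSCs replicate 1 and 0.0586 without replicate 2). Without DRG NCSCs replicate 3 the difference in *Hoxd3* was 2.51 (edgeR adjusted p = 0.000201). The 4 higher members compare with 15.1% of all genes. *Hoxd10* was lower in the pNSCs (2 counts against 49, a ratio of 13.2, 95% counting interval 3.47 to 112, edgeR adjusted p = 7.07e-05, 23.3% of all genes lower). The ages differed between these groups (postnatal against adult) together with the mouse line and the way of selecting cells, which cannot be told apart.

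Wnt1Cre-mTmG tail and DRG pNSCs came from the same mouse line and age range, both grew as Tomato+ and GFP- clusters and differed in tissue. They also differed in the picked clusters and in depth (19648349 to 22548268 reads against 9808246 to 11431445). Tissue, cluster and anything that goes with depth therefore cannot be told apart. Here 5 of 6 members tested were higher in tail pNSCs (10.4% of all genes). Among them, *Hoxd11* and *Hoxd3* were in the fit only through the tail pNSCs, which favours that direction. *Hoxd8* differed least (0.43 ± 0.06, edgeR adjusted p = 2.9e-05, below 2-fold and so not called), followed by *Hoxd4* (1.18 ± 0.14), *Hoxd3* (1.61 ± 0.36) and *Hoxd9* (1.98 ± 0.11). *Hoxd10* had 1266 counts against 2, a ratio of 317.5 (95% counting interval 87.7 to 2625), and *Hoxd11* was at least 35.4-fold higher in tail pNSCs. All 9 mesenchymal markers were also called higher in the tail pNSCs (511 to 516 CPM in sum, against 34.7 to 39.4), and their part in the HoxD difference was not tested.

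The 2 tail pNSC groups were compared with each other after their counts had been seen, in 1 fit of all 28 samples. Relative to Tail-pNSC, 3 of 7 members tested were higher in Wnt1Cre-mTmG Tail pNSCs (13.7% of all genes): *Hoxd11* with 637 counts against 3, a ratio of 123 (95% counting interval 41.8 to 596, edgeR adjusted p = 2.78e-16), *Hoxd10* by 4.30-fold (2.10 ± 0.13, edgeR adjusted p = 4.62e-15) and *Hoxd3* by 2.52-fold (1.33 ± 0.34, edgeR adjusted p = 0.00109). *Hoxd4* (0.81 ± 0.16, edgeR adjusted p = 3.75e-05) and *Hoxd9* (0.26 ± 0.09, 0.013) were below 2-fold. *Hoxd8* had an estimate of -0.12 ± 0.06 (interval -0.24 to 0.01, edgeR adjusted p = 0.116) and *Hoxd13* of -1.50 ± 1.03 on 4 against 7 counts (0.188). The count stayed at 3 under every alternative run for this comparison. The experiment, mouse line, way of selecting cells and picked cluster differed together between these groups and cannot be told apart.

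Mesenchymal markers were also higher in Wnt1Cre-mTmG Tail pNSCs, where their sum was 511 to 516 CPM with 9 of 9 detected, against 40.1 to 40.4 CPM in Tail-pNSC. The sum in Wnt1Cre-mTmG Tail pNSCs was 0.698% of the Tail level of these mesenchymal markers. The same samples held 24.7% of the Tail level of *Hoxd11*, 59.4% of *Hoxd10* and 1.29% of *Hoxd13*. The part of these cells in the *Hoxd11* difference was not tested.

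**Figure D4:**
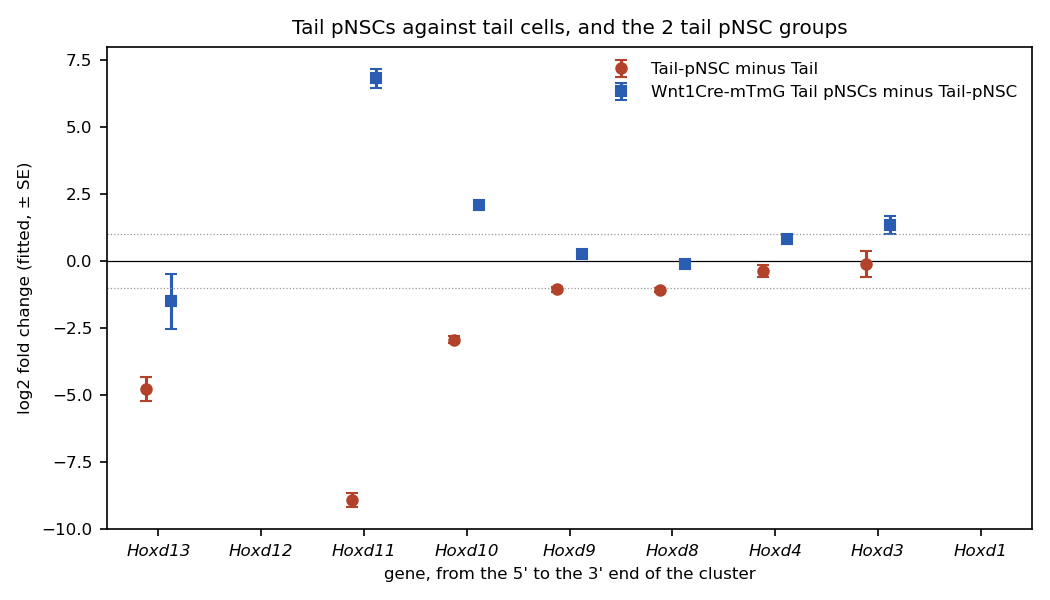
Log2 fold change ± SE for each member along the cluster, for Tail-pNSC minus Tail (red) and Wnt1Cre-mTmG Tail pNSCs minus Tail-pNSC (blue), with dotted lines at a 2-fold change. *Hoxd3*, *Hoxd4*, *Hoxd8* and *Hoxd9* lay between -1.09 and 1.33 in both, and *Hoxd10* (-2.94 and 2.10) and *Hoxd11* lay farther out with opposite signs. *Hoxd13* lay below 0 in both (-4.77 and -1.50). Tail-pNSC enters both comparisons with opposite sign, and *Hoxd12* and *Hoxd1* were not tested.

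A formal test of whether the tail-against-brain difference itself differed between the Wnt1Cre-mTmG experiment and the Tail-pNSC and Brain-NSC groups called 0 of 7 members by edgeR (adjusted p = 0.9999 for each, 16.0% of all genes called) and 1 by DESeq2, *Hoxd11* (DESeq2 adjusted p = 0.00774). Both brain groups are at 0 in these genes, so that the edgeR result carries no information on them.

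The paralogues in the other clusters were examined to see whether the same groups differed there. *Hoxa11* had the pattern of *Hoxd11*, with 189 and 194 counts in Tail (11.5 ± 0.823 CPM), 128 to 144 in Wnt1Cre-mTmG Tail pNSCs (6.44 ± 0.142 CPM), 0 and 0 in Tail-pNSC and 1 to 8 in DRG NCSCs. *Hoxa9* behaved unlike *Hoxd9*. It was at 41.2 CPM in Tail, 22.7 in Wnt1Cre-mTmG Tail pNSCs and 0.814 in Tail-pNSC, yet reached 128 ± 1.92 CPM in Wnt1Cre-mTmG DRG pNSCs, where *Hoxd9* was at 6.28. *Hoxb13*, the HoxB paralogue of *Hoxd13*, was at 51.4 ± 1.79 CPM in Wnt1Cre-mTmG Tail pNSCs, 36.8 ± 4.37 in Tail and 9.35 ± 0.676 in Tail-pNSC, while *Hoxa13* was at 10.7 CPM in Tail, 9.21 in Wnt1Cre-mTmG Tail pNSCs and 0.320 in Tail-pNSC.

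The clusters as a whole also parted company. Of 9 HoxC genes, 9 were detected in Tail and in Wnt1Cre-mTmG DRG pNSCs, 5 in Wnt1Cre-mTmG Tail pNSCs (*Hoxc9* to *Hoxc13*), 6 in DRG NCSCs and 0 in Tail-pNSC. Wnt1Cre-mTmG DRG pNSCs therefore had *Hoxc10* (20.0 CPM) and *Hoxc11* (2.64 CPM) but 0 to 2 counts of *Hoxd10* and none of *Hoxd11*. Their summed HoxA level was 191 RPKM, above the 49.4 of Tail, while their summed HoxD level was 15.0. In Brain-NSC 7 of 11 HoxA genes were detected (19.3 RPKM in sum) and 0 of 10 HoxB, 0 of 9 HoxC and 0 of 9 HoxD genes. Lung-pNSC detected 8 HoxA genes and *Hoxd8*, and Sox2-GFP lung pNSCs detected 7 HoxA genes and no HoxD gene.

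**Figure D5:**
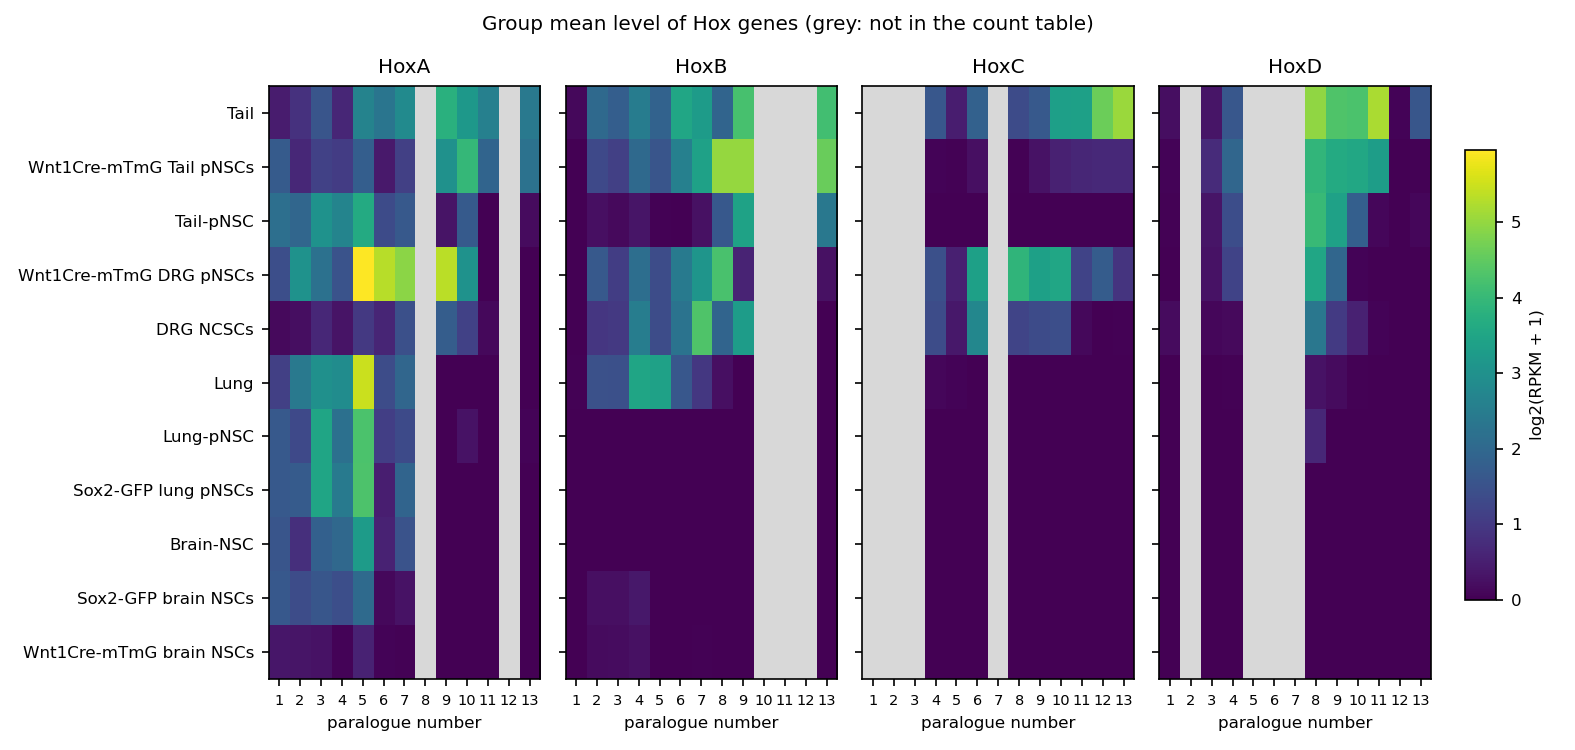
Heat maps of log2(RPKM + 1), as group means, for the genes of the HoxA, HoxB, HoxC and HoxD clusters in the 11 groups, with grey for positions that hold no gene in the count table. HoxD signal appeared in the tail and DRG groups with a trace in lung, HoxA signal appeared in brain groups too, and HoxC signal was strong in Tail and Wnt1Cre-mTmG DRG pNSCs and blank in Tail-pNSC.

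Noncoding transcripts inside the HoxD cluster were found in the same groups as its anterior genes. *Hoxd3os1*, the antisense transcript across the *Hoxd3* and *Hoxd8* region, had 86 and 111 counts in Tail-pNSC, 68 and 68 in Tail, 148, 147 and 134 in Wnt1Cre-mTmG Tail pNSCs, 34, 45 and 43 in Wnt1Cre-mTmG DRG pNSCs and 15, 7 and 9 in DRG NCSCs, with at most 2 in any brain or lung sample. *Haglr*, the antisense transcript between *Hoxd3* and *Hoxd1*, was highest in Wnt1Cre-mTmG Tail pNSCs (2.17 ± 0.112 CPM) and at 1.07 ± 0.214 CPM in Tail-pNSC. Both were called higher in each tail or DRG group than in its brain counterpart, and neither differed between Tail-pNSC and Tail by the edgeR test. *Mir10b*, a microRNA gene of the cluster, had at most 2 counts, and poly-A selected libraries measure mature microRNAs poorly.

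The genes that flank the cluster did not share its pattern. *Mtx2*, a mitochondrial import gene beyond *Hoxd1*, was at 28.9 to 60.6 CPM as group means, and *Lnpk*, beyond *Hoxd13*, was at 17.7 to 49.9 CPM in all 11 groups including the brain. *Evx2*, the homeobox gene next to *Hoxd13*, had 1 count in all 28 samples together. Of 8 flanking genes tested, 0 were called between Tail-pNSC and Brain-NSC or between Wnt1Cre-mTmG Tail pNSCs and their brain or DRG counterparts. Of all genes tested, 731 of 16948 were called higher and 1117 lower in Tail-pNSC than in Brain-NSC. For Wnt1Cre-mTmG Tail pNSCs, 1323 of 14448 were higher and 1307 lower against brain, and 1497 higher and 1099 lower against DRG pNSCs. With 8 genes, 0 calls is not far from these shares. Between Tail-pNSC and Tail, 3 of 8 were higher (14.1% of all genes), which were *Chn1* (2.79), *Nfe2l2* (1.12) and *Atp5g3* (1.01) as log2 fold changes.

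Cofactors and regulators of Hox genes were also read from fixed lists. Of 7 Meis and Pbx genes, whose proteins bind DNA together with Hox proteins, 0 were called between Tail-pNSC and Brain-NSC. Over all genes tested there, 731 of 16948 were called higher and 1117 lower in Tail-pNSC. Between the 2 tail pNSC groups 0 were called, against 2375 of 17393 genes higher and 1130 lower in Wnt1Cre-mTmG Tail pNSCs. In Wnt1Cre-mTmG Tail pNSCs 1 was higher than in brain (*Meis1*, 1.10, 9.16% of all genes higher). Against Tail, 4 of 7 were higher in Tail-pNSC (14.1% of all genes), with *Pbx4* at 4.95, *Meis2* at 2.43, *Meis1* at 1.95 and *Pbx3* at 1.70 (list median 1.70, median of all genes -0.16). Against DRG NCSCs, 5 of 7 were higher in Wnt1Cre-mTmG Tail pNSCs (15.3% of all genes), led by *Meis2* (146 against 5.48 CPM) and *Meis1* (117 against 5.77 CPM). *Meis2* was lower in Lung-pNSC (18.6 CPM) than in Tail-pNSC (86.5 CPM) and Brain-NSC (74.3 CPM).

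A list of regulators upstream of Hox genes held Cdx genes, *Gdf11*, retinoic acid enzymes and receptors, brachyury and *Gbx2*. Of 8 tested, 4 were higher in Wnt1Cre-mTmG Tail pNSCs than in Tail-pNSC and none lower (13.7% of all genes higher, list median 1.43, median of all genes 0). These were *Aldh1a2*, which makes retinoic acid (4.17 ± 0.91, at 0.602 against 0.0286 CPM), the retinoic acid receptors *Rarb* (3.06 ± 0.27) and *Rara* (2.42 ± 0.09, at 33.1 against 6.14 CPM) and *T*, which encodes brachyury (1.17 ± 0.22, at 3.64 against 1.61 CPM). For *Aldh1a2* the Tail-pNSC value lay below the 0.162 CPM that 3 counts stand for there, so the size of its change is not known. The same 4 were higher in Wnt1Cre-mTmG Tail pNSCs than in Wnt1Cre-mTmG DRG pNSCs among 5 called (10.4% of all genes higher). Of 14 Polycomb and Trithorax genes, which maintain the silent or active state of Hox clusters, 0 were called between the 2 tail pNSC groups, 0 between Tail-pNSC and Brain-NSC and 0 between Wnt1Cre-mTmG tail and DRG pNSCs. Over all genes tested, the calls in the first of these were 2375 higher and 1130 lower of 17393. The second had 731 higher and 1117 lower of 16948, and the third 1497 higher and 1099 lower of 14448. Against Tail, Tail-pNSC was lower in *Ezh1* (-3.21) and *Cbx7* (-1.55) and higher in *Bmi1* (1.95) and *Ezh2* (1.34), the 4 called of 14 (46.7% of all genes called in either direction).

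The genes whose group means were most like those of each member were listed by Pearson's r of log2(CPM + 1) over the 11 groups, among 14454 genes, as a description without a test. The points share the groups and their depths. *Hoxd4* was most like *Hoxd3os1* (0.992), *Hoxd9* (0.971) and *Hoxa10* (0.948). *Hoxd8* was most like *Hoxd9* (0.963), followed by *Hoxa10* and by *Hoxd3os1* (0.940), and *Hoxd9* like *Hoxd4* (0.971), *Hoxd3os1* (0.964) and *Hoxd8* (0.963). *Hoxd10* was most like *Hoxb13* (0.977), and *Hoxd11* like *Hoxa11* and its antisense transcript *Hoxa11os* (0.992 each). *Hoxd13* was most like *Them5* and *Cryba4* (0.998 each) and *Klf14* (0.997), all of them highest in Tail. *Hoxd1*, *Hoxd3* and *Hoxd12* stayed below 5 CPM in every group and were left out.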

How the data were processed

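RNA was selected by poly-A and sequenced single-end on NextSeq500 by the authors, who aligned reads to GRCm38 with HISAT2 and made the deposited counts, whole reads per gene, with htseq-count. The deposited FPKM table was not used. Strand setting, treatment of multi-mapping reads and annotation release are not given in the sources used here. The 9 members and all gene lists were chosen with earlier results of these data known.

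Counts were scaled by TMM and tested with edgeR 4.0.16 (R 4.3.3; glmQLFit and glmQLFTest, two-sided), after filterByExpr, in 1 fit per experiment (10, 12 or 8 samples, Lung shared) or, for interactions and the added comparison of the tail pNSC groups, 1 fit of all 28. A gene was called at a Benjamini-Hochberg adjusted p below 0.05 over all genes tested and a fold change of at least 2. CPM and RPKM use TMM effective library sizes over all 28 samples, and SE are those of the fitted log2 fold changes. Gene positions, exonic lengths (basic annotation) and homeoboxes came from the GENCODE annotation of GRCm38. The floor was 3 counts per library, and counting intervals are exact at 95% and cover counting error only. Named genes were all 9 members, their flanking and noncoding neighbours and paralogues, up to 4 called genes per list with the greatest change and the 3 genes most like each member above 5 CPM. *Siah2*, *Adamts3* and *Magel2* complete that last list. Alternatives were DESeq2 1.42.0 (size factors, Wald test), no filter, no fold limit, 2 groups alone, a replicate block and leaving out each replicate. On simulated counts 100 of 100 changes of 2-fold and 100 of 100 of 4-fold were recovered in each of 4 designs, with 8 to 12 false calls. The changed genes all had a mean above 5 CPM, and recovery was scored by adjusted p below 0.05 without the fold limit. The simulation therefore does not cover members at lower counts or the full calling rule.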

Additional observations from a re-analysis of the deposited data

Results flagged for a closer look

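For *Hoxd8* the test of whether the lung pNSC effect differed between experiments passed its threshold, but it rests on 1 read on the Sox2-GFP side. Lung-pNSC held 30 and 32 counts against 0 and 0 in Brain-NSC, while Sox2-GFP lung pNSCs held 0, 0 and 0 against 0, 0 and 1 in Sox2-GFP brain NSCs, and the test of the difference between these differences gave an edgeR adjusted p of 0.003369. With the other 5 samples of the Sox2-GFP groups at 0, the size of the Sox2-GFP effect is not known. The sorted reporter and the age of the lung (adult against postnatal) differed together between the experiments and cannot be told apart.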

How the results depend on the processing

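Of the counts of called members, 72 of 76 with a replicate left out and 105 of 110 under other settings stayed within 1.5 times the reported count. For Lung-pNSC against Lung, the 2 groups fitted alone gave 1 called member in place of 2, and leaving out a replicate gave 1 to 2. For Sox2-GFP lung pNSCs against Lung, no filter gave 2 in place of 1, and leaving out a replicate gave 0 to 1, with *Hoxd8* no longer tested without either Lung sample. For DRG NCSCs against Wnt1Cre-mTmG brain NSCs, the 2 groups alone gave 3 in place of 5. The DESeq2 test of the tail interaction gave 1 in place of 0. With a limit of 10 counts, 0 members were detected in Lung in place of 1. Leaving out a replicate gave 5 to 7 for Tail-pNSC against Brain-NSC, 5 to 6 against Lung-pNSC, and 4 to 5 for Wnt1Cre-mTmG DRG pNSCs against DRG NCSCs. The estimate for *Hoxd3* between Tail-pNSC and Tail ranged from -0.54 to 0.21 when a replicate was left out, and was above 0 without Tail-pNSC replicate 1 (edgeR adjusted p = 0.752), and in the tail interaction by DESeq2 that of *Hoxd4* was -0.053 and that of *Hoxd9* -0.60. The cause of these changes was not tested, beyond the fewer genes or samples that each setting leaves. Replicate numbers did not pair the samples (correlations of deviations from -0.016 to 0.052 over 45 pairs), and a replicate block left all 17 counts equal. *Hoxd1* and *Hoxd12* lay too near the limit of these depths to be tested, and the calls of *Hoxd13* against brain and of *Hoxd9* between the lung groups were each lost without 1 library. Dividing by the exons of all annotated transcripts, chosen after seeing the data, lowered the *Hoxd11* share in Tail from 33.2% to 11.7%.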
